A study of Mus musculus with 2 samples.

Results

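The genes described here are 10 components of the Notch pathway, chosen by symbol among the 28001 features of the count tables: the receptors *Notch1*, *Notch2*, *Notch3* and *Notch4*, the ligands *Jag1* and *Jag2*, and the target genes *Hes1*, *Hey1*, *Hey2* and *Heyl*. All 10 were found in both libraries, each as a single row. Their UMI counts (unique molecular identifiers, which count captured RNA molecules) were read in pericytes, progenitor-like mural cells, smooth muscle cells, fibroblasts and endothelial cells. Both libraries hold tdTomato+ cells sorted from skeletal muscle of C57BL/6J mice that carry CreERT2 on both *Hic1* alleles and a Cre-dependent tdTomato reporter on both Rosa26 alleles. In the E10-P56 library the dam received 7.5 mg tamoxifen (TAM) at embryonic day 10 and muscle was taken at postnatal day 56. In the adult pulse library the animals received 5 daily doses of 2.5 mg TAM at 8 weeks of age. The labels give day 56 for this collection too. The study's text gives a later day for its adult pulse data, which it took from an earlier study. *Hic1* encodes a transcriptional repressor, and only cells in which its promoter was active during TAM exposure, and their descendants, carry the label. The methods describe tibialis anterior muscles pooled from 2 hindlimbs for a sample, and 2 rounds of sorting with antibodies against blood and endothelial surface proteins, so the endothelial cells left are those that passed a gate set against them.

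Notch receptors are cut when a neighbouring cell presents a ligand, and the freed intracellular part enters the nucleus, where it joins the DNA-binding protein RBPJ and switches on genes of the *Hes* and *Hey* families, which encode transcriptional repressors. In the vessel wall, *Notch3* is known as the receptor of mural cells, the pericytes of capillaries and the smooth muscle cells of arteries and veins, and *Jag1* as a ligand shared by endothelium and smooth muscle. *Notch4* and the ligand gene *Dll4* are known from endothelium.

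The E10-P56 library held 8236 barcodes and 67460919 UMIs and the adult pulse library 9195 barcodes and 69153173 UMIs. After a minimum of 1500 UMIs and a limit of 10% mitochondrial UMIs, 6087 and 8567 cells remained, and 11 of the kept cells shared a barcode sequence with a cell of the other library. Cells were assigned by marker genes, none of them one of the 10 members, counted as the number of distinct markers of a list expected when a cell is reduced to 1500 UMIs. This gave 374 pericytes in the E10-P56 library and 335 in the adult pulse library, 176 and 49 progenitor-like mural cells, 160 and 18 smooth muscle cells, 3942 and 6948 fibroblasts, and 14 and 46 endothelial cells. These classes are ranges of a score rather than types. Within 0.5 of a main threshold of their class lay 25 and 32 of the pericytes and 60 and 27 of the progenitor-like mural cells. For smooth muscle cells it was 30 and 8, and for fibroblasts 325 and 457. Not every threshold that keeps out other cells was counted, so these numbers are minimums. Every one of the 8 pericyte markers, the 8 smooth muscle markers and the 5 progenitor-like markers had UMIs in its own class in both libraries. The summed level of the pericyte markers was 26769 and 26685 CPM (UMIs per 1000000 UMIs of the population) in pericytes against 381 and 290 CPM in fibroblasts. The classes were cut on these marker lists, so these values follow from the assignment and are no support for the names. Progenitor-like mural cells held the same markers at 9991 and 11623 CPM, beside 2189 and 1692 CPM of their own 5 markers. The mural classes thus share markers and differ by degree. *Dlk1*, which encodes a non-canonical Notch ligand, is one of the progenitor-like markers, so its 713 CPM and 261 CPM in progenitor-like mural cells against 2.97 CPM and 6.17 CPM in pericytes follow from the assignment. The 14 endothelial cells of the E10-P56 library went partly against their label, with pericyte markers at 4687 CPM against 268 CPM in the 46 endothelial cells of the adult pulse library. The 18 adult pulse smooth muscle cells held pericyte markers at 3979 CPM, against 1995 CPM in the 160 of the E10-P56 library. Their smooth muscle markers stood at 6690 CPM against 10620 CPM. The paper observed vascular smooth muscle cells only in its embryonic pulse experiment. The reporter was read in all 5 populations, at 1108 to 2366 CPM in the E10-P56 library and at 2041 to 3247 CPM in the adult pulse library. The paper found no endothelial cells among the labelled descendants in embryonic forelimbs. It also removed *Pecam1*-positive cells from its adult muscle data as contaminating. The part of free RNA in the reporter UMIs of endothelial cells was not tested.

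Each labelling time has 1 library, so no test between conditions was possible and none is given. Each level is the sum of a gene over all cells of a population, in CPM and with an exact 95% Poisson interval, and ratios are given with their counting interval. Intervals cover counting error only. Levels are compared between populations for the same gene and not between genes. The Cell Ranger version also differed between the libraries (5.0.0 and 3.0.2), so labelling time, library and software version cannot be told apart.

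Mural cells held most of these components at higher levels than fibroblasts. In pericytes, 6 of the 8 members with at least 20 UMIs over both populations were at least 2-fold higher than in fibroblasts in the E10-P56 library, where 19.8% of all genes were. In that of the adult pulse it was 8 of 9 members against 16.9% of all genes. In progenitor-like mural cells it was 6 of 9 against 11.6% and 7 of 9 against 11%, and in smooth muscle cells 6 of 9 against 13.7% and 6 of 9 against 9.4%. *Notch1*, *Notch3*, *Jag1*, *Hes1* and *Heyl* passed 2-fold in all 3 mural populations of both libraries. *Notch2* passed it in none. For *Heyl* in smooth muscle cells of the adult pulse library the ratio of 2.81 (0.764 to 7.23) rests on 4 UMIs and includes 1. The median ratio of pericytes over fibroblasts was 7.79 and 8.49 for the members and 1.25 and 1.24 for all genes. The stricter marker gate left 13 progenitor-like mural cells and 3 smooth muscle cells in the adult pulse library, where the counts were 3 and 2. Neither the members with enough UMIs nor the share of all genes was counted under that gate, so nothing is read from the fall.

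**Figure D1:**
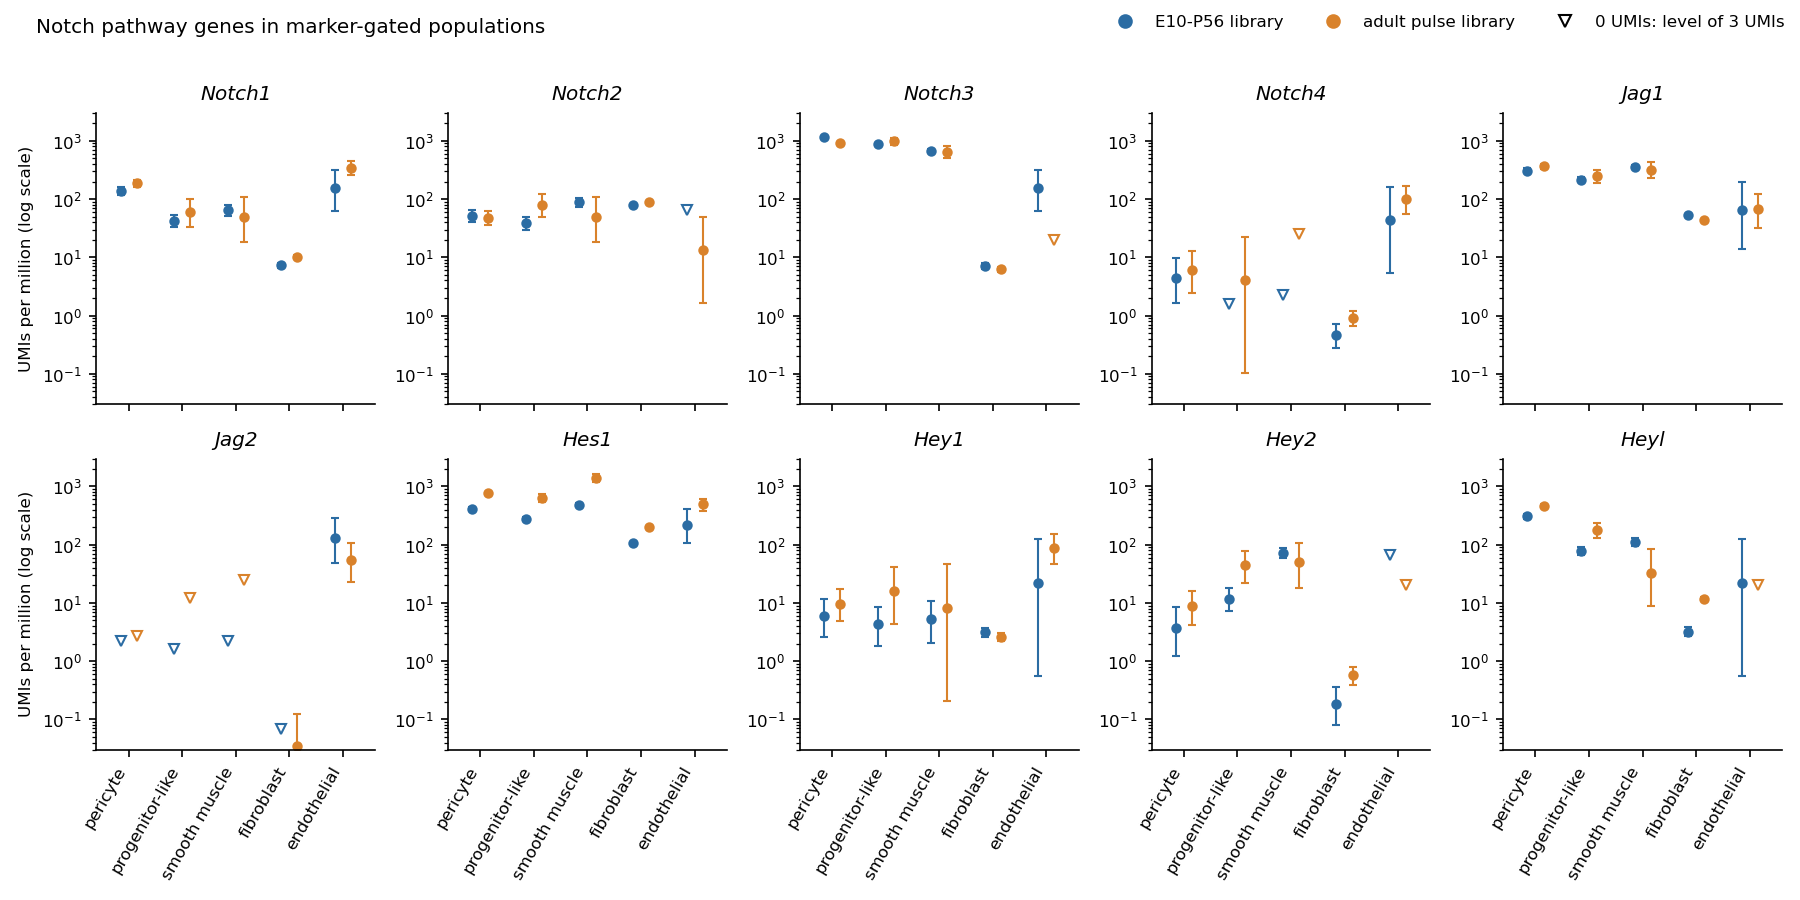
Level of each of the 10 genes in the 5 populations, in CPM on a log axis; points are the sums over a population in the E10-P56 library (blue) and the adult pulse library (orange), bars are exact 95% Poisson intervals, and open triangles mark populations with 0 UMIs at the level of 3 UMIs. *Notch3* sits at 651 to 1145 CPM in the mural populations and at 6.24 and 7.14 CPM in fibroblasts. Within the adult pulse library, *Notch1*, *Notch4*, *Jag2* and *Hey1* have their highest level in endothelial cells.

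**Figure D2:**
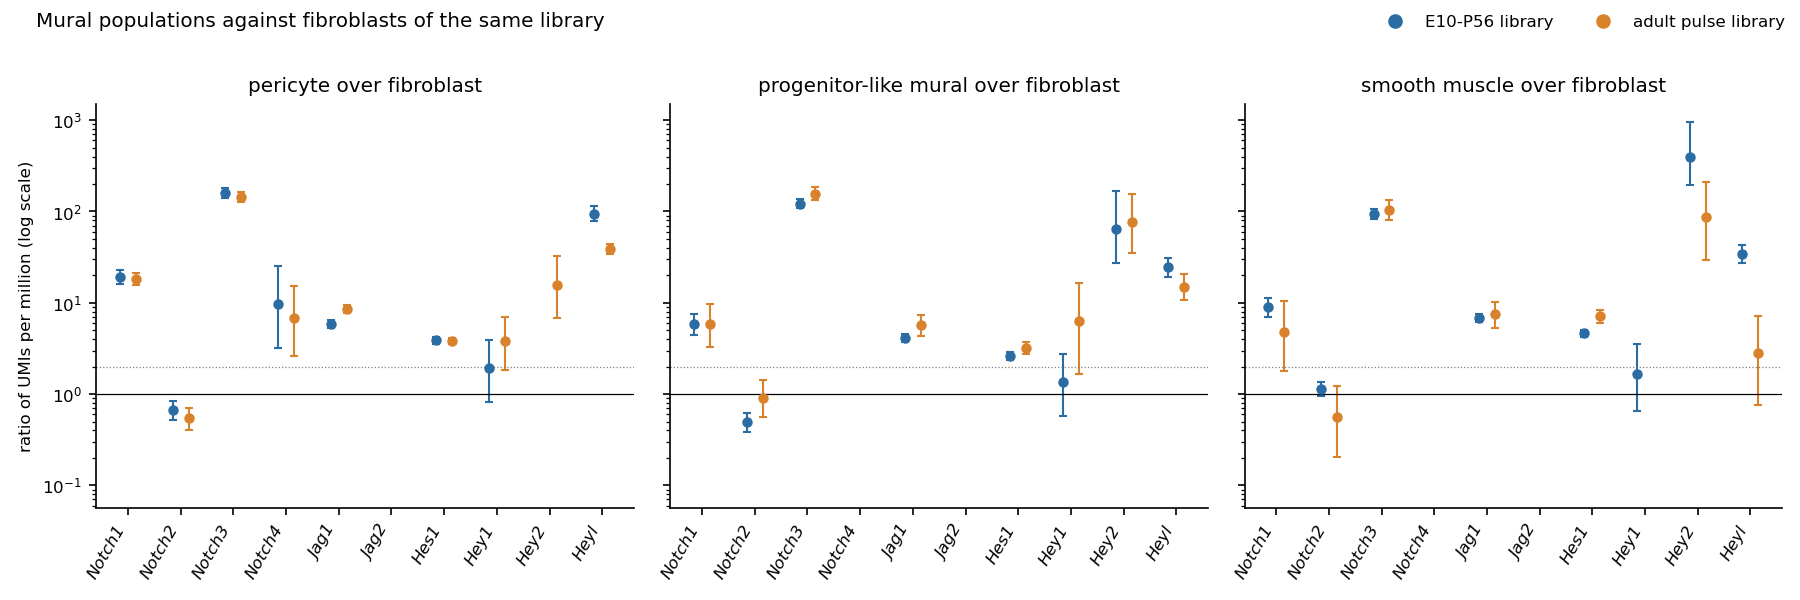
Ratio of the level in each mural population to that in fibroblasts of the same library, on a log axis, for the genes with at least 20 UMIs over both populations and UMIs in each; bars are 95% counting intervals, the solid line marks a ratio of 1 and the dotted line 2-fold. *Notch2* lies near or below 1, whereas *Notch3* lies at 94.3 to 160 in all panels.

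Among the receptors, *Notch3* (chromosome 17, 32120820 to 32166852 on the minus strand of GRCm38) showed the widest gap between mural cells and fibroblasts. Its level in the E10-P56 library was 1145 CPM in pericytes (1088 to 1203), 870 CPM in progenitor-like mural cells (829 to 914) and 673 CPM in smooth muscle cells (630 to 719), and these intervals did not overlap. Fibroblasts had 7.14 CPM (6.37 to 7.98). Progenitor-like mural cells of the adult pulse library had 982 CPM (863 to 1113) and pericytes 906 CPM (851 to 963), with overlapping intervals, and smooth muscle cells were below both at 651 CPM (515 to 811). The fibroblasts of that library had 6.24 CPM (5.61 to 6.92). The pericyte level was 160-fold that of fibroblasts in the E10-P56 library (142 to 182) and 145-fold in the adult pulse library (129 to 164). The adult endothelial cells had 0 UMIs of *Notch3*, which places pericytes at least 45.0-fold higher when 3 UMIs are taken as the floor of the summed population. The 154 CPM in endothelial cells of the E10-P56 library came from 7 UMIs in the 14 cells whose pericyte markers are given above. The antisense gene *Gm17276* overlaps *Notch3*, and whether reads were counted by strand is not given in the sources used here.

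*Notch3* was also seen in most single mural cells. With every cell reduced to 1500 UMIs, 78.6% of pericytes in the E10-P56 library and 69.0% in the adult pulse library had a *Notch3* UMI, and before this step 94.1% and 90.7% had it. Progenitor-like mural cells followed at 67.0% and 73.5%, and smooth muscle cells at 62.5% and 61.1%. In fibroblasts the reduced shares were 1.01% and 0.878%. Among Schwann-type cells of the E10-P56 library, set beside them as cells of another lineage, 2 of 129 had a *Notch3* UMI before this step (1.55%, at a median of 7003 UMIs per cell), against 5.33% of fibroblasts at a median of 9109.5. After it, 0 of 129 did, which allows a share of up to 2.33%. Tenocytes, the tendon fibroblasts of these samples, numbered 238 and 558. Before this step 4.20% and 1.97% of them had a *Notch3* UMI, against 5.33% and 3.68% of fibroblasts, and after it 0.420% and 0.538%. Expression in fibroblasts and free RNA cannot be told apart from these shares.

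*Notch1*, a receptor used in many tissues, had a higher summed level in pericytes than in the other mural cells. Pericytes had 139 CPM in the E10-P56 library (120 to 160) and 186 CPM in the adult pulse library (162 to 213). Progenitor-like mural cells had 42.1 CPM (33.3 to 52.4) and 60.1 CPM (33.7 to 99.2), and smooth muscle cells 64.4 CPM (51.6 to 79.5) and 49.4 CPM (18.1 to 108), so pericytes lay above both in each library with no overlap of the intervals. Within the E10-P56 library the level in smooth muscle cells was 0.464 of that in pericytes (0.356 to 0.602) and in progenitor-like mural cells 0.303 (0.230 to 0.396). Fibroblasts had 7.23 CPM and 10.2 CPM. The highest level of *Notch1* was in the adult endothelial cells, at 342 CPM (255 to 450). The summed endothelial markers stood at 105 CPM and 55.6 CPM in pericytes and at 8559 CPM and 9369 CPM in endothelial cells. When pericytes with a UMI of any of the 8 endothelial markers were left out, 288 and 290 pericytes remained and *Notch1* was at 145 CPM and 191 CPM, inside the intervals above. In progenitor-like mural cells of the E10-P56 library this left 80 of 176 cells, with *Notch1* at 60.3 CPM, above the interval given for all of them and below the pericyte level.

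*Notch2*, a receptor found broadly in connective tissue, was not higher in pericytes than in fibroblasts. Fibroblasts had 77.8 CPM (75.2 to 80.4) in the E10-P56 library and 87.7 CPM (85.3 to 90.1) in the adult pulse library. Pericytes had 51.9 CPM (40.5 to 65.6) and 47.6 CPM (35.8 to 62.1), which is 0.668 and 0.543 of the fibroblast level. In the E10-P56 library smooth muscle cells had 88.9 CPM (73.7 to 106) and overlapped fibroblasts, while progenitor-like mural cells had 38.3 CPM, or 0.493 of the fibroblast level (0.385 to 0.622). The adult progenitor-like mural cells (80.2 CPM) and smooth muscle cells (49.4 CPM) lay between fibroblasts and pericytes, and each population overlapped its neighbours in the order. Tenocytes had 113 CPM and 86.2 CPM.

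*Notch4*, known from endothelium, was read from few molecules. The adult endothelial cells had 15 UMIs or 101 CPM (56.3 to 166), which was 16.3-fold the pericyte level (6.26 to 47.3). The 14 endothelial cells of the E10-P56 library had 2 UMIs or 44.0 CPM (5.33 to 159), overlapping pericytes. Pericytes had 6 UMIs and 7 UMIs, at 4.45 CPM and 6.17 CPM, above the 0.456 CPM and 0.896 CPM of fibroblasts. Progenitor-like mural cells had 0 UMIs and 1 UMI and smooth muscle cells had none in either library. The part of free endothelial RNA in the pericyte value was not tested.

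Of the ligands, *Jag1* was found in all 3 mural populations. In the E10-P56 library it stood at 358 CPM in smooth muscle cells (327 to 391), 305 CPM in pericytes (276 to 336) and 216 CPM in progenitor-like mural cells (196 to 238). The interval of progenitor-like mural cells lay below the other two, which overlapped each other. The adult pulse pericytes had 366 CPM (332 to 403), smooth muscle cells 321 CPM (228 to 439) and progenitor-like mural cells 245 CPM (187 to 314), and only pericytes and progenitor-like mural cells were clear of each other. Fibroblasts had 52.3 CPM and 43.1 CPM, so pericytes were 5.83-fold (5.24 to 6.48) and 8.49-fold (7.63 to 9.42) above them. *Jag1* was also high in perineurial-type cells, the sheath of nerves, at 140 CPM (114 to 171) and 202 CPM (137 to 287), and in Schwann-type cells at 109 CPM and 149 CPM. Tenocytes had 23.0 CPM and 11.6 CPM.

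*Jag2* had no UMI in the mural cells kept. It had 0 UMIs in 374 and 335 pericytes, which allows a share of cells with a UMI of up to 0.802% and 0.896% at a median of 3296 and 3215 UMIs per cell. This limits detection and not expression. There were also 0 UMIs in the progenitor-like and smooth muscle cells kept in both libraries. The 238 E10-P56 smooth muscle cells between 10% and 20% mitochondrial UMIs, which the limit left out, had 3 UMIs. Fibroblasts had 0 UMIs among 3942 cells and 2 UMIs among 6948 cells. The endothelial cells held 6 UMIs in the E10-P56 library and 8 UMIs in the adult pulse library, at 132 CPM (48.4 to 287) and 53.7 CPM (23.2 to 106). *Jag2* thus had its highest level in endothelial cells of both libraries.

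The target genes did not share an order. *Hes1*, which many signals besides Notch can induce, was higher in each mural population than in fibroblasts. In the E10-P56 library smooth muscle cells had 487 CPM (451 to 526), pericytes 407 CPM (374 to 443), progenitor-like mural cells 274 CPM (251 to 299) and fibroblasts 105 CPM (102 to 108). The adult pulse values were 1409 CPM (1206 to 1636), 761 CPM (711 to 814), 637 CPM (542 to 745) and 199 CPM (195 to 202). Among these populations, smooth muscle cells were highest and fibroblasts lowest in both. With the stricter gate the 3 adult smooth muscle cells left had 336 CPM, below the 768 CPM of pericytes. In the reported classes every one of these populations was higher in the adult pulse library. A list of 12 genes that respond to tissue dissociation, among them *Fos* and *Jun*, moved in the same direction between the libraries, from 3128 CPM to 4319 CPM in pericytes, 6969 to 10472 in progenitor-like mural cells, 7723 to 13354 in smooth muscle cells and 8434 to 11342 in fibroblasts. Its part in the *Hes1* values was not tested. Among the 5 populations, the list was highest in fibroblasts of the E10-P56 library, where *Hes1* was lowest. In the adult pulse library both were highest in smooth muscle cells. Outside the 5 populations, perineurial-type cells had *Hes1* at 439 CPM (392 to 491) and 886 CPM (743 to 1048). Schwann-type cells had 322 CPM and 320 CPM, and tenocytes 90.7 CPM and 165 CPM. A high *Hes1* level was thus not particular to mural cells.

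*Heyl* was highest in pericytes. Its level there was 306 CPM (277 to 337) in the E10-P56 library and 456 CPM (417 to 497) in the adult pulse library, against 3.22 CPM and 11.7 CPM in fibroblasts, and the ratio was between 78.3 and 116 in the first and 38.9 (34.6 to 43.7) in the second. Smooth muscle cells of the E10-P56 library had 110 CPM (93.4 to 130) and progenitor-like mural cells 78.8 CPM (66.6 to 92.6). Adult pulse progenitor-like mural cells had 176 CPM (128 to 237) and smooth muscle cells 33.0 CPM (8.98 to 84.4), the latter from 4 UMIs. The place of pericytes at the top was common to the libraries and the order of the other mural populations was not. Reduced to 1500 UMIs, 37.4% and 47.2% of pericytes had a *Heyl* UMI against 0.609% and 1.78% of fibroblasts. The adult endothelial cells had 0 UMIs, which places pericytes at least 22.6-fold higher.

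*Hey2*, a target known from arterial development, was higher in smooth muscle cells than in pericytes, whereas *Heyl* was lower. Smooth muscle cells of the E10-P56 library had 98 UMIs or 72.6 CPM (58.9 to 88.5), progenitor-like mural cells 11.7 CPM (7.34 to 17.7), pericytes 3.71 CPM (1.20 to 8.66) and fibroblasts 0.183 CPM (0.0788 to 0.360). Smooth muscle cells were thus 19.6-fold above pericytes (8.11 to 61.6), a pair in which 28.9% of all genes were at least 2-fold apart and, of 7 members with enough UMIs, *Hey2* was higher and *Notch1* and *Heyl* were lower. In the adult pulse library smooth muscle cells had 6 UMIs or 49.4 CPM (18.1 to 108), progenitor-like mural cells 44.1 CPM (22.0 to 78.9) and pericytes 8.82 CPM (4.23 to 16.2). The first pair of these overlapped and the pericyte interval lay below both. Between progenitor-like mural cells and pericytes of the E10-P56 library, where 23.3% of all genes were at least 2-fold apart, the same 3 members were so, with *Hey2* again higher at 3.16-fold (1.17 to 10.7) and *Notch1* and *Heyl* lower.

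The promoter of *Hey2* is shown because it was the only member window searched in which an RBPJ-type motif was found. The motif CGTGGGAA and its reverse complement TTCCCACG were searched in windows of 250 bases before to 50 bases after the gene start (RefSeq, GRCm38.p6), which were at hand for 7 members, all receptors and ligands and *Hey2*. No window was used for *Hes1*, *Hey1* and *Heyl*. The *Hey2* window holds the motif at bases -5 to 3 around the start and its reverse complement at bases -207 to -200, and 0.734% of all 32851 windows hold either. Printed from chr10:30842781-30843033 on the minus strand, with both matches in capitals, it reads as follows.
Hey2: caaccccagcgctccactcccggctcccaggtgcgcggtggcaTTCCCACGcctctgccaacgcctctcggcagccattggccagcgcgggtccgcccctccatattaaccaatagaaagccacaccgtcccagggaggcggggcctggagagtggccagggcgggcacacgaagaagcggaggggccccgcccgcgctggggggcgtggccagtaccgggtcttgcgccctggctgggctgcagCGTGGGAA
A match describes these letters and shows no binding.

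*Hey1*, the remaining target, was read from few molecules in mural cells, with 8 UMIs in pericytes of the E10-P56 library and 11 UMIs in those of the adult pulse library. The levels were 5.94 CPM (2.56 to 11.7) and 9.70 CPM (4.84 to 17.4), against 3.10 CPM and 2.57 CPM in fibroblasts. The ratio of 1.91 in the E10-P56 library (0.809 to 3.88) includes 1, and that of 3.78 in the adult pulse library (1.85 to 6.96) does not. The adult endothelial cells had the highest level, at 87.2 CPM (46.5 to 149) or 8.99-fold the pericyte level (3.72 to 22.2). Against pericytes of the same library, *Notch4* and *Hey1* were the 2 of 8 members at least 2-fold higher in these cells, where 12.9% of all genes were. Another 4 of the 8, *Notch2*, *Notch3*, *Jag1* and *Heyl*, were at least 2-fold lower, a direction for which the share of all genes was not counted. Nothing is read from these counts.

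All mural cells were then ordered by their pericyte marker score, which also takes in the cells between the classes. The classes were cut on this score, so the values show the same contrast of *Heyl* and *Hey2* at a finer step and are no independent view of it. In the E10-P56 library *Heyl* was at 87.3 CPM in 146 cells with fewer than 2 markers, 70.5 CPM in 205 cells with 2 to 4, 131 CPM in 159 cells with 4 to 6 and 313 CPM in 328 cells with 6 or more. *Hey2* ran from 58.0 CPM over 14.1 and 15.9 to 4.12 CPM in the same bins, and *Notch1* from 45.6 CPM over 44.5 and 72.3 to 140 CPM. *Heyl* and *Notch1* had overlapping intervals in the bins below 4 markers and their highest level in the top bin, whereas *Hey2* had its highest level in the lowest bin. *Notch3* stood at 445 CPM in the lowest bin and at 898, 1125 and 1108 CPM in the others. *Jag1* stayed within 236 to 302 CPM. The lowest bin had the highest median smooth muscle marker score, 4.07 against 0.897 in the top bin. The lowest bin of the adult pulse library held 13 cells and is not shown. From 58 cells with 2 to 4 markers over 114 to 292 cells with 6 or more, *Heyl* stood at 107, 262 and 478 CPM, *Notch1* at 47.2, 121 and 192 CPM and *Hey2* at 40.9, 33.6 and 7.17 CPM. *Notch3* stayed within 881 to 924 CPM there. *Hes1* was highest in the bin of 2 to 4 markers at 1327 CPM, where the dissociation genes were at 14164 CPM against 4437 CPM in the top bin, and their part was not tested.

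**Figure D3:**
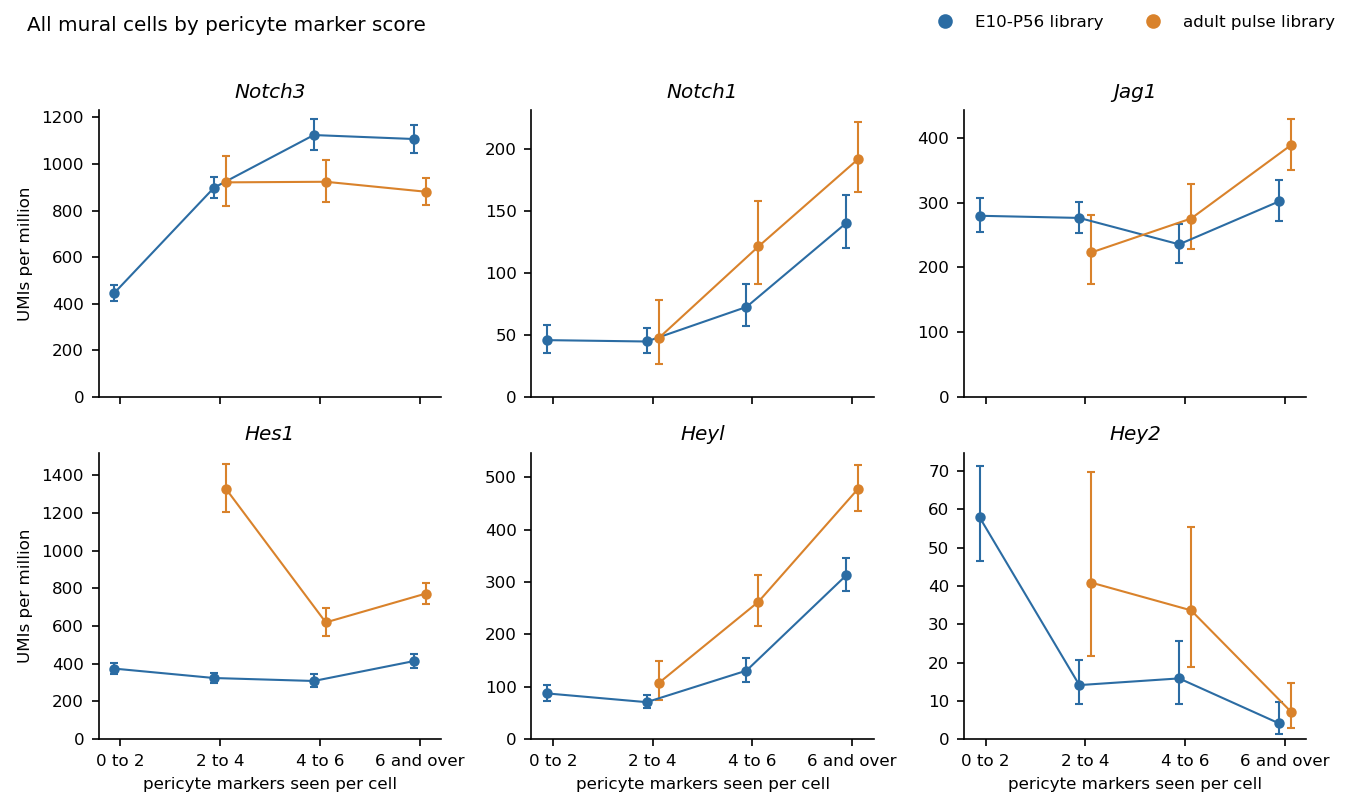
Level of 6 genes in all mural cells, those between the gates included, by the number of pericyte markers expected at 1500 UMIs per cell; the y axes give CPM from 0, bars are exact 95% Poisson intervals, and colours are the E10-P56 (blue) and adult pulse (orange) libraries. *Heyl* and *Notch1* are highest and *Hey2* lowest where 6 or more markers were seen, and *Notch3* is lowest at 445 CPM in the bin of 0 to 2.

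Smooth muscle cells of the E10-P56 library were affected by the mitochondrial limit, since 238 further cells lay between 10% and 20% and 168 above 20%. Mitochondrial UMIs lower the CPM of such cells, so these levels are also given per 1000000 UMIs that are not mitochondrial. On that scale *Notch3* was at 723 (677 to 771) in the 160 cells kept, 857 (809 to 907) in the middle range and 1013 (922 to 1110) above 20%, and in CPM at 673, 739 and 733. It was thus higher in the cells left out, with no overlap of the intervals on the first scale. The order of mural populations given for *Notch3* above is in CPM and for the cells kept. The other mural populations were not read on the scale without mitochondrial UMIs. *Jag1* was at 384 (351 to 420), 494 (457 to 532) and 510 (446 to 580) without mitochondrial UMIs. *Hey2* was at 77.9, 87.2 (72.3 to 104) and 110 (81.9 to 145), and *Notch1* at 69.2, 67.5 and 61.8, and for both genes the intervals overlapped. *Heyl* was at 118 (100 to 139), 163 (143 to 186) and 146 (113 to 185) on that scale. Its level in the middle range was thus above that of the cells kept with no overlap, and the level above 20% overlapped both.

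UMIs of several components were counted in the same pericytes. Of the E10-P56 pericytes, 221 of 374 had UMIs of both *Notch3* and *Heyl*, and 218 of both *Notch3* and *Jag1*, and of the adult pulse pericytes 207 and 196 of 335. Reduced to 1500 UMIs, the shares with *Notch3* and *Heyl* were 28.9% (24.3 to 33.8, exact 95% Clopper-Pearson interval) and 30.7% (25.8 to 36.0). In fibroblasts they were 0.0254% and 0.101%. *Notch3* alone was seen in 78.6% and 69.0% of pericytes at this depth and *Heyl* alone in 37.4% and 47.2%, and no link between the genes is read from the joint counts.

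Fibroblasts were then split by *Pi16*, known as a marker of adventitial fibroblasts, and *Col15a1*, known as a marker of parenchymal fibroblasts, a split chosen after the data were seen. The E10-P56 library had 1490 fibroblasts with *Pi16* and no *Col15a1* UMI and 1084 with the reverse, and the adult pulse library 2448 and 1721. *Notch2* was higher in the *Pi16* group, at 110 CPM (105 to 116) against 56.0 CPM (51.8 to 60.5) in the E10-P56 library and 124 CPM (119 to 129) against 59.2 CPM (55.1 to 63.4) in the adult pulse library. *Jag1* followed it, with 81.0 CPM (76.6 to 85.6) against 32.6 CPM (29.4 to 36.1) and 61.6 CPM (58.2 to 65.1) against 30.9 CPM (28.0 to 34.0). *Notch1*, *Notch3*, *Hes1* and *Heyl* were higher in the *Col15a1* group. *Notch1* was at 1.93 CPM against 13.8 CPM in the E10-P56 library and 3.29 CPM against 17.5 CPM in the adult pulse library. *Heyl* was at 0.579 CPM against 5.43 CPM and 1.87 CPM against 16.8 CPM. *Hes1* was at 72.3 CPM against 127 CPM and 117 CPM against 275 CPM, and *Notch3* at 2.83 CPM against 12.4 CPM and 2.45 CPM against 9.27 to 12.9 CPM. The intervals of both groups were apart for these 6 genes in both libraries, and the share of all genes with intervals apart was not counted. The summed pericyte markers moved with *Notch1*, *Notch3*, *Hes1* and *Heyl*, from 232 CPM to 546 CPM and from 138 CPM to 469 CPM. So did the dissociation genes, from 7179 CPM to 10414 CPM and from 8178 CPM to 15597 CPM. The part of either was not tested. Median depth was similar, at 8660.5 and 8940.5 UMIs per cell and 7843 and 7112 UMIs. Of the members not named in this split, *Notch4* and *Hey2* had overlapping intervals in both libraries and *Jag2* had 0 UMIs. *Hey1* was at 2.25 CPM (1.57 to 3.13) against 3.94 CPM (2.88 to 5.28) in the E10-P56 library, which overlap. Its intervals were apart in the adult pulse library, at 0.736 CPM against 2.88 CPM.

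**Figure D4:**
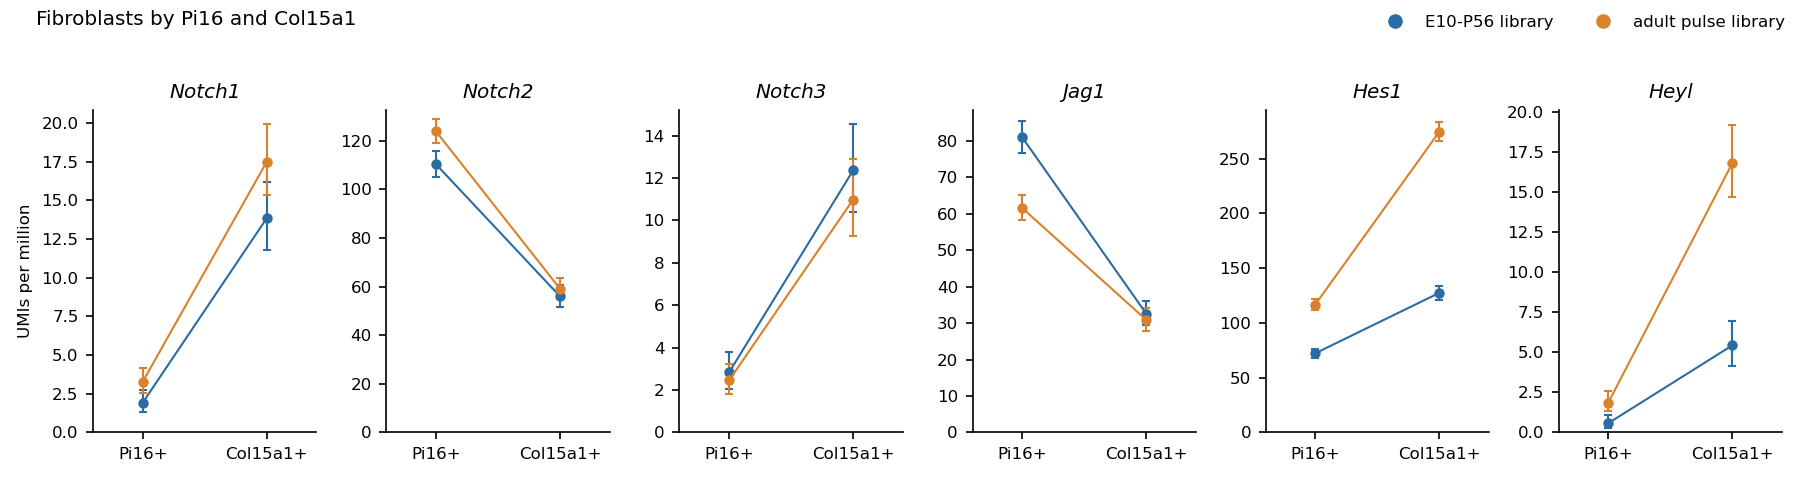
Level of 6 genes in fibroblasts with *Pi16* and no *Col15a1* UMI (left points) and with *Col15a1* and no *Pi16* UMI (right points); the y axes give CPM from 0, bars are exact 95% Poisson intervals, and colours are the E10-P56 (blue) and adult pulse (orange) libraries. *Notch2* and *Jag1* are higher in the *Pi16* group and *Notch1*, *Notch3*, *Hes1* and *Heyl* in the *Col15a1* group of both libraries.

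Between the libraries, 6 members had enough UMIs in pericytes for a ratio. None was 2-fold apart, where 7.32% of all genes were, and nothing is read from that count over 6 genes. The ratio of E10-P56 to adult pulse was 1.26 for *Notch3* (1.17 to 1.37), 1.09 for *Notch2* (0.754 to 1.59), 0.833 for *Jag1* (0.725 to 0.957), 0.746 for *Notch1* (0.609 to 0.912), 0.670 for *Heyl* (0.588 to 0.765) and 0.535 for *Hes1* (0.480 to 0.596). The interval of *Notch2* includes 1. In fibroblasts 2 of 9 were 2-fold apart, where 14.2% of all genes were, and nothing is read from that count over 9 genes. These were *Heyl* at 3.22 CPM against 11.7 CPM and *Hey2* at 0.183 CPM against 0.569 CPM, both lower in the E10-P56 library. *Hey2* rests there on 8 UMIs and 33 UMIs, and with a minimum of 100 UMIs for a ratio the count was 1. *Hes1* was at a ratio of 0.529 (0.512 to 0.548), just inside the 2-fold limit.

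A list of 45 further genes of the pathway (other ligands, RBPJ and its partners, the secretase that cuts the receptor, enzymes that add sugars to it, ubiquitin ligases and other targets) showed no such shift as a whole. In pericytes against fibroblasts, 7 of 34 with enough UMIs were at least 2-fold higher and 3 lower in the E10-P56 library, and 7 of 36 and 3 in that of the adult pulse, close to the 19.8% and 16.9% of all genes that were higher. Their median ratio was 1.32 and 1.22, beside 1.25 and 1.24 for all genes. The share of all genes that were lower was not counted, so nothing is read from the number of lower genes. *Rbpj* itself was among those lower, at 72.7 CPM and 94.4 CPM in pericytes against 145 CPM and 213 CPM in fibroblasts.

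By the rule that a gene be at least 3-fold apart between a pair of the 5 populations in both libraries, 5 of these genes are named. *Nrarp*, a target that encodes a feedback inhibitor of Notch signalling, had 49.0 CPM and 51.1 CPM in pericytes, 81.5 CPM and 48.1 CPM in progenitor-like mural cells and 144 CPM and 189 CPM in smooth muscle cells. Fibroblasts had 0.342 CPM and 0.224 CPM from 15 and 13 UMIs, so the pericyte level was 143-fold and 228-fold higher. *Nrarp* was thus another target with its highest mural level in smooth muscle cells, as for *Hey2* and *Hes1*, and adult endothelial cells had 215 CPM (147 to 303). *Neurl1b*, which encodes a ubiquitin ligase that acts on ligands, was 20.8-fold and 17.6-fold higher in pericytes than fibroblasts and also above 3-fold in the other mural populations. *Dtx3*, of the Deltex family, was 15.1-fold and 9.59-fold higher in pericytes than fibroblasts and 5.12-fold and 5.33-fold higher than in smooth muscle cells. *Maml3*, which encodes a coactivator of the RBPJ complex, was 6.47-fold and 5.50-fold higher in pericytes than fibroblasts. *Lfng*, which encodes a sugar transferase that modifies the receptors, was 3.18-fold and 4.63-fold higher in progenitor-like mural cells than fibroblasts, the latter from 4 UMIs. *Dll4*, outside that rule and named after its values were seen, had 26 UMIs in adult endothelial cells or 174 CPM (114 to 256) and at most 1 UMI in any mural population.

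The genes whose levels were most like those of 3 members were sought over the 10 profiles of at least 50 cells, 7 of them from the E10-P56 library, among 11816 genes that are no markers. Profiles share a library and its depth, so Pearson's r of log2(CPM + 5) is given as a description. For *Notch3* these were *Ano1* (r = 0.997), which encodes a chloride channel, *Esam* (r = 0.996), an adhesion molecule, and *Gja4* (r = 0.996), a connexin. *Gja4* had 497 CPM and 464 CPM in pericytes and 1.44 CPM and 0.638 CPM in fibroblasts. For *Heyl* they were *Foxs1* (r = 0.981), a forkhead factor gene, *Cystm1* (r = 0.979) and *Arap2* (r = 0.963). *Arap2* had 282 CPM and 265 CPM in pericytes and 79.3 CPM in smooth muscle cells of the E10-P56 library. For *Jag1* they were *Decr2* (r = 0.982), *Sfxn5* (r = 0.976) and *Agrn* (r = 0.971), and the first pair had no profile above 20 CPM. Among the members themselves the highest values were those of *Notch1* with *Heyl* (r = 0.947) and with *Jag1* (r = 0.919), and the lowest was that of *Notch2* with *Notch3* (r = -0.713).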

How the data were processed

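UMI counts of 2 libraries of tdTomato+ cells from adult mouse muscle were used. The counts were deposited by the authors as 10x matrices, made with Cell Ranger (per the file headers, 5.0.0 made the E10-P56 matrix and 3.0.2 that of the adult pulse) on a modified mm10 genome. The labels name either of 2 kit versions without saying which library used which. The paper's methods give kit version 3 for cells of adult muscle taken at day 56. The members, marker lists, pathway list and dissociation list were chosen with earlier results of these data known, and the gate thresholds after the distributions of the marker scores were seen. Cells with under 1500 UMIs or over 10% mitochondrial UMIs were left out, and doublets were not removed in the reported values. All 10 members are named. Pathway genes are named where at least 3-fold apart between a pair of the 5 main populations in the same direction in both libraries, and the 3 genes most like *Notch3*, *Jag1* and *Heyl* by r. The splits by pericyte score and by *Pi16* and *Col15a1* were added later.

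Counts were summed per population and library and divided by all UMIs (CPM). No test was made, since each labelling time has 1 library. A ratio needed 20 UMIs over both populations, 0 UMIs were read as 3, and no ratio was given where the higher side had at most 3 UMIs. Cells were reduced to 1500 UMIs with seed 20. Alternatives changed the filters, doublets (the top 5% of Scrublet scores), populations (Leiden clusters), CPM denominator, minimum UMIs and fold. Scripts were tested on simulated data. Python 3.11.15, numpy 2.4.6, scipy 1.17.1, scanpy 1.11.5 and leidenalg were used. Gene positions are from GENCODE for GRCm38, and depth was 67460919 and 69153173 UMIs.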

Additional observations from a re-analysis of the deposited data

Results flagged for a closer look

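*Heyl* differed in direction between the libraries when progenitor-like mural cells were set against smooth muscle cells. The ratio was 0.714 in the E10-P56 library and 5.35 in the adult pulse library. This difference between the labelling times was not tested, and the adult value rests on 18 smooth muscle cells with 4 *Heyl* UMIs.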

How the results depend on the processing

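With 1 library per labelling time, depth and cell number limit the values, most of all for the 18 smooth muscle cells, 49 progenitor-like mural cells and 46 endothelial cells of the adult pulse library. No paired analysis was possible because the result comes from no test. With the stricter marker gate, members at least 2-fold above fibroblasts numbered 3 in the progenitor-like mural cells and 2 in the smooth muscle cells of the adult pulse library. The share of all genes was not counted under that gate. With a minimum of 100 UMIs for a ratio, 1 member was 2-fold apart between the libraries in fibroblasts. *Notch3* in pericytes was at 745 CPM in the adult pulse library with Leiden clusters, and at 1352 CPM and 1108 CPM in E10-P56 and adult pulse when abundant and mitochondrial genes were left out of the denominator; the cause of the first was not tested. All other counts stayed within 1.5 times of those reported, and all other *Notch3* levels in pericytes within their interval. Of the 100 levels of members, 21 left their interval with the stricter gate, 32 with the other denominator, 8 with clusters and at most 2 with the filters on UMIs, mitochondrial share or Scrublet score. In mural cells without endothelial marker UMIs, an alternative chosen after seeing the data, 7 did. The population with the highest level stayed the same for 6 of 10 members of the adult pulse library with the stricter gate, which moved it for *Notch3*, *Jag1*, *Hes1* and *Hey2*, and for 8 of 10 without endothelial marker UMIs, which moved it for *Notch2* and *Hey2*. It stayed for 9 or 10 of 10 in the other settings.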
